A study of Homo sapiens
Mus musculus with 6 samples.

Results

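Human embryonic kidney cells of the HEK293-Flp-In line were cultured for 6 h on a layer of mouse C2C12 myoblasts, and their transcripts were compared between wells whose myoblasts carried full-length Notch1 and wells with the control myoblast line. The comparison took all genes of the human read table, 23855 of the 47288 human and mouse genes measured in the series, and of these 13270 had enough reads to be tested. Both groups hold 3 of the 6 wells. The C2C12-control group holds the control myoblasts, each well with 1 of the lines HEK-control, HEK-Jag1WT and HEK-Jag1Ndr. The C2C12-Notch1 group holds the FLNotch1 myoblasts with the same 3 HEK lines. HEK-Jag1WT carries wild-type Jag1, and HEK-Jag1Ndr the variant form that the labels call Ndr. The labels do not name the promoters of these transgenes. The Notch1 line was kept under puromycin (1 ug/mL) and both Jag1 lines under hygromycin (300 ug/mL). In every well of the single plate the myoblasts had settled for 8 h and been transfected with 1.6 ug of the plasmid pcDNA5, and the HEK cells were added 18 h after that. Each combination of lines is 1 well, so the 3 HEK lines stand in for replicates, and p-values reflect no more than well-to-well spread, which can be technical. Values of 3 wells are given in the order HEK-control, HEK-Jag1WT, HEK-Jag1Ndr throughout.

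Notch is a receptor that acts between touching cells. A ligand such as Jag1 on the sending cell binds Notch1 on the receiving cell, whose intracellular part is then cut free and switches on genes of the HES and HEY families in the nucleus. Here the HEK cells were the ligand side, so the comparison asked what the sending cells expressed beside a receptor-rich neighbour. Vertebrate cells also carry sensors of foreign RNA in the cytoplasm. When these sensors or interferon receptors are engaged, a set of antiviral genes is induced. Immediate early genes answer growth factors and stress within minutes to hours, and genes of glucose uptake and glycolysis answer oxygen and nutrient supply.

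The wells held 4081452 to 10292878 human and 2263529 to 7965231 mouse reads on genes. The mouse share of gene reads was 49.8% ± 2.76 (SD, n = 3) beside C2C12-control and 33.2% ± 3.46 (SD, n = 3) beside C2C12-Notch1 (two-sided exact permutation p = 0.1, the smallest that 3 wells against 3 can give). For each 100 human reads there were 97.6, 89.6 and 111.5 mouse reads beside C2C12-control and 50.6, 42.1 and 57.5 beside C2C12-Notch1. Fewer cells of a species and less RNA per cell cannot be told apart. The 15 HEK markers were uneven in the human table. KRT8, KRT18 and VIM had means of 272, 101 and 244 RPKM, the deposited level scaled by transcript length and by human reads, while NES and PAX2 had 1.69 and 1.16 RPKM. LHX1, SOX11, NEFM and STMN2 were lower still (0.823, 0.624, 0.618 and 0.0185 RPKM). Of 19 myoblast markers 4 had no reads in any well of the human table. Those tested were 6, with 0 called by edgeR, DESeq2 or limma and 0 at an unadjusted p under 0.05. The summed level of the 19 was 46.4 to 47.4 RPKM in the C2C12-control and 42.1 to 47.0 RPKM in the C2C12-Notch1 wells. TNNT1 alone had a mean of 24.4 RPKM, against a median of 0.209 RPKM over the markers. The sum thus says little about the other markers. The human table held 0.00701 reads per 100 mouse reads on COL1A2 and 0.292 on MYOD1, but 5.22 on ITGA7, 4.29 on COL1A1 and 146 on TNNT1. The part of mouse reads in these human reads was not tested.

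Human genes differed little between the 2 kinds of neighbour. In a fit of all 6 wells with the HEK line as a block, edgeR's quasi-likelihood test called 660 of 13270 genes at a Benjamini-Hochberg adjusted p under 0.05 (4.97%), of which 411 were higher (3.1%) and 249 lower (1.88%) beside C2C12-Notch1. The median size of a called difference was 0.28 on the log2 scale, and 30 genes were over 1.5-fold higher and 33 over 1.5-fold lower. One sign was shared by the 3 pairs of wells in 641 of the 660 called genes, against 38.6% of all tested genes, and the groups of wells did not overlap for 132 of them, against 3.65% of all tested genes. Since the calls were made from the same 3 pairs, both counts follow in part from the selection and add no separate support. In the same fit the HEK lines themselves set 54.1% (HEK-Jag1WT) and 46.5% (HEK-Jag1Ndr) of human genes apart from HEK-control, and the C2C12 lines set 57.8% of mouse genes apart. The DESeq2 Wald test called 69 genes and limma on log2(RPKM + 0.5) called 27. With the HEK line left out of the model edgeR called 0 genes, with 50 at an unadjusted p under 0.05 against 2466 with it. Of all calls 62.3% were higher, and 42.1% of 603 under scaling to plain library totals.

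**Figure D1:**
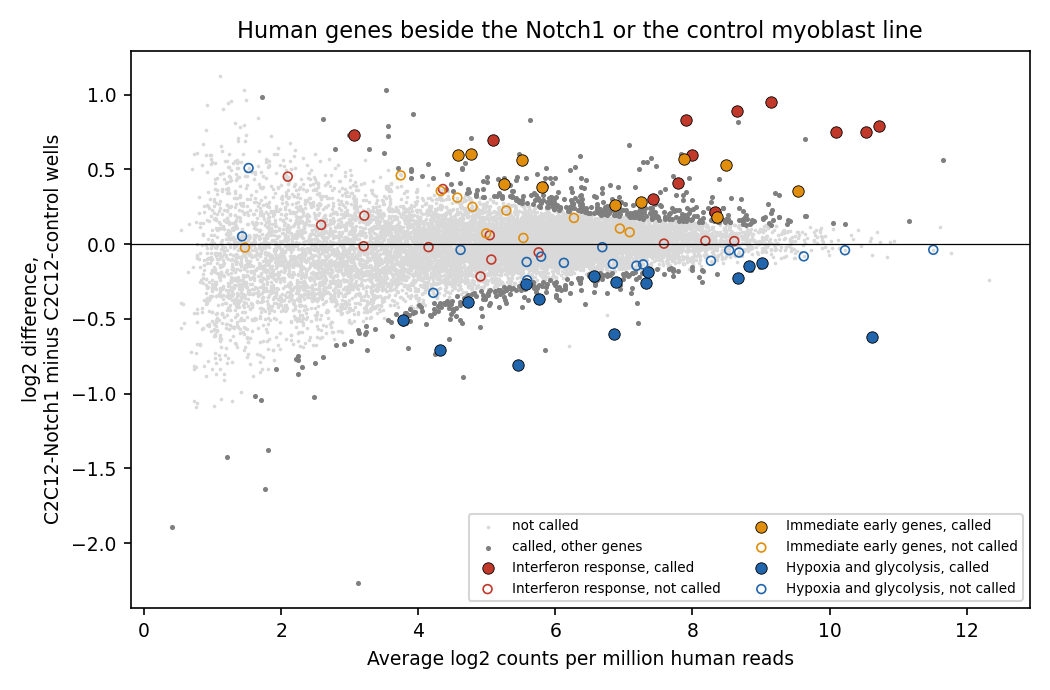
Each point is 1 of 13270 tested human genes, with its average log2 CPM (counts scaled to the human reads of a well) on the x axis and its log2 difference between the C2C12-Notch1 and C2C12-control wells on the y axis. Grey points are genes outside 3 lists, coloured points members of those lists, filled where called at an adjusted p under 0.05. The filled red and orange points (interferon response and immediate early genes) lie above 0 and the filled blue points (hypoxia and glycolysis) below 0.

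Leaving out single wells moved these counts. With the HEK line as a block, a well whose partner is left out adds almost nothing to the C2C12 difference. The wells of a pair thus gave nearly the same result, and each such run amounts to leaving out a pair. Without either HEK-control well edgeR called 1434 (C2C12-control well left out) or 1441 genes (C2C12-Notch1 well), without either HEK-Jag1WT well 216 or 207, and without either HEK-Jag1Ndr well 182 or 180. The higher share was then 58.9% or 58.4%, 67.1% or 65.2%, and 76.4% or 76.7%. Of 122 genes named by rule, 83 were called, against 4.97% of all tested genes. The rule picks called genes and members with the smallest p, so this count follows in part from the selection. A core of 17 was called under every alternative run that tested the gene, except the model without the HEK line. Higher were OASL, DDX58, IFIH1, HERC5, IFIT1, IFIT2, IFIT3, OLIG2, EGR1, ATF3, MCL1 and PMAIP1. Lower were HLA-L, HNRNPA3P1, SLC2A1, SLC2A3 and GAPDH. SLC2A1 had more mouse than human reads, so the run without such genes did not test it.

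The group with the largest differences among well-expressed genes was antiviral. Of 25 tested interferon response genes 12 were higher beside C2C12-Notch1 (48%, against 3.1% of all tested genes) and 0 lower. Lists and members, here and below, were chosen with earlier results of these data known, so their shares are no independent support. The list median was 0.30 against 0.00143 over all tested genes. At an unadjusted p under 0.05 edgeR had 13 higher and 1 lower, and DESeq2 and limma called 0 lower. OASL, an inhibitor of viral replication related to the oligoadenylate synthetases, had 206, 87.1 and 268 RPKM beside C2C12-control and 396, 185 and 462 RPKM beside C2C12-Notch1. Each HEK line thus had about the same step, but the HEK lines differed so much in level that the groups overlapped. The OASL difference was 0.95 on the log2 scale (SE 0.0430, edgeR adjusted p 2.3e-32), a fold of 1.94.

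The RNA sensors of the cytoplasm followed. DDX58, which encodes RIG-I, had 46.3, 40.4 and 90.2 RPKM beside C2C12-control and 83.7, 74.99 and 160.1 RPKM beside C2C12-Notch1 (log2 difference 0.89, SE 0.0436, edgeR adjusted p 2.97e-30). IFIH1, which encodes the sensor MDA5, had 34.4, 15.7 and 93.0 and 56.9, 32.7 and 155 RPKM (log2 difference 0.83, SE 0.0533, edgeR adjusted p 3.35e-23). For both genes the HEK-Jag1Ndr wells were highest and the HEK-Jag1WT wells lowest beside either myoblast line, and the groups overlapped. DHX58, MAVS, TBK1 and IRF3, which belong to the same sensing pathway and lie outside the lists and the rule, were not called (0.55, adjusted p 0.399, 0.034, adjusted p 0.772, 0.045, adjusted p 0.842 and -0.087, adjusted p 0.61 on the log2 scale). TMEM173, the adaptor of DNA sensing, went the other way, from 17.9, 15.2 and 19.4 to 12.6, 10.0 and 15.8 RPKM (log2 difference -0.41, SE 0.0956, edgeR adjusted p 0.00371). It was named after its values were seen, and its call was lost without either HEK-Jag1WT well (adjusted p 0.0841 and 0.0871, with 0.0024 to 1 over all alternatives).

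Among the effectors, the IFIT proteins bind viral RNA and block its translation. IFIT2 had 275, 166 and 646 RPKM beside C2C12-control and 441, 314 and 1052 RPKM beside C2C12-Notch1 (log2 difference 0.79, SE 0.0386, edgeR adjusted p 2.58e-30). IFIT1 had 278, 116 and 394 and 431, 213 and 624 RPKM (log2 difference 0.75, SE 0.0388, edgeR adjusted p 8.42e-29). IFIT3 had 304, 196 and 618 and 470.1, 354 and 985 RPKM (log2 difference 0.75, SE 0.0394, edgeR adjusted p 1.81e-28). For IFIT2 and IFIT3 the well with HEK-Jag1Ndr beside C2C12-control was above the wells with HEK-control and HEK-Jag1WT beside C2C12-Notch1, and for IFIT1 above the well with HEK-Jag1WT, so the groups overlapped in each. IFIT5, named after its values were seen, had a smaller difference of 0.41 (40.1, 45.6 and 56.3 and 49.7, 62.0 and 73.5 RPKM, adjusted p 7.38e-10). ISG15, a ubiquitin-like modifier also named after its values were seen, had 284, 253 and 395 and 466, 389 and 521 RPKM (log2 difference 0.60, SE 0.0494, edgeR adjusted p 6.82e-17). HERC5, the ligase that attaches ISG15 and a gene outside the list, had 85.6, 72.4 and 92.7 and 141, 129.6 and 160.2 RPKM (log2 difference 0.82, SE 0.0431, edgeR adjusted p 2.23e-28). For HERC5 every C2C12-Notch1 well was above every C2C12-control well. For ISG15 the groups overlapped in RPKM, although not in reads scaled by the trimmed mean (TMM).

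**Figure D2:**
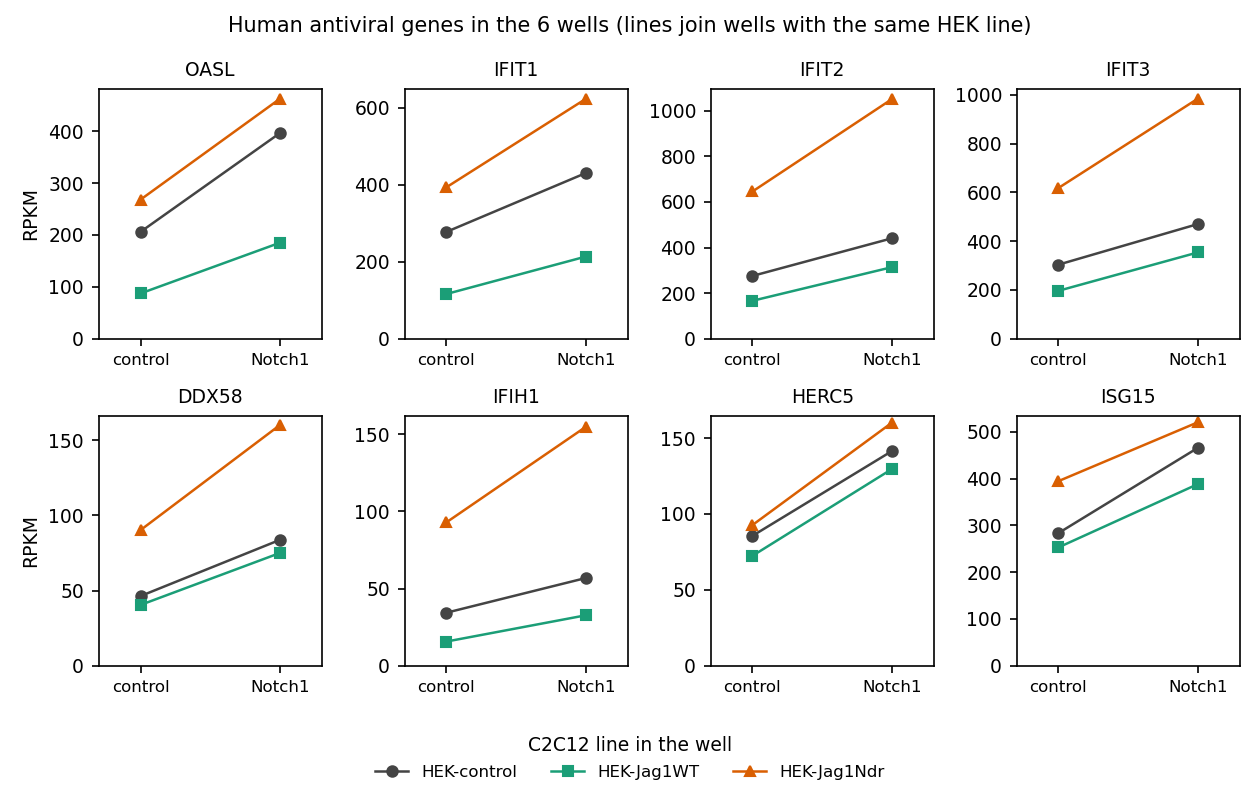
RPKM of 8 human antiviral genes (y axes from 0, each gene on its own scale) in the 6 wells, by myoblast line on the x axis, with lines joining the 2 wells of a HEK line. All 24 lines go up from control to Notch1, and the HEK-Jag1Ndr wells are highest for all 8 genes.

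Further antiviral genes outside the list were higher as well. DDX60, a helicase that assists RIG-I, had 2.36, 3.37 and 4.498 and 3.28, 6.26 and 6.96 RPKM (log2 difference 0.71, SE 0.106, edgeR adjusted p 6.59e-07). ZC3HAV1, which encodes the zinc finger antiviral protein, had 92.9, 75.4 and 158 and 144, 126 and 241 RPKM (log2 difference 0.71, SE 0.0396, edgeR adjusted p 1.04e-26), and SAMD9 and ZNFX1 differed by 0.58 (adjusted p 4.64e-13) and 0.55 (9.41e-13). The last 3 were named after their values were seen. Further list members were called with less support: IFI44 at 0.73, RSAD2, the radical SAM enzyme viperin, at 0.69, and B2M, the light chain of class I histocompatibility molecules, at 0.21. RSAD2 had the opposite sign with HEK-Jag1WT, where it had 0.649 and 0.486 RPKM. IFI44 lost its call without either HEK-Jag1WT well (adjusted p 0.503 and 0.501, range over all alternatives 0.000605 to 1), RSAD2 without either HEK-Jag1Ndr well (0.613 and 0.619, range 6.16e-10 to 1), and B2M without either well of either Jag1 line (0.0788 to 0.183, range 4.19e-08 to 1). The chemokine gene CCL5, the one called member of 9 tested NF-kB and cytokine genes, stood at 0.84 (adjusted p 0.0147), and lost its call without either HEK-Jag1WT well (0.467 and 0.471, range 0.00849 to 1).

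Not every interferon response gene took part. The heavy chain genes HLA-B and HLA-C stood at 0.0040 and 0.021 (adjusted p 0.98 and 0.844), and STAT2, a transcription factor of interferon signalling, at -0.22 (0.224). MX1 and IFI6, both strongly interferon-dependent in many cells, stood at 0.45 (0.333) and 0.37 (0.0616). IRF7, IRF9, IRF1, TAP1, OAS3, USP18 and BST2 were also not called, with differences from -0.10 to 0.19. Interferon genes themselves were barely read in the human table. IFNB1 had 1 read and IFNA1, IFNG and IFNK had 0 reads over the 6 wells, and IFNL1 had 4, 11 and 16 reads beside C2C12-control and 28, 16 and 21 beside C2C12-Notch1 (log2 0.73, adjusted p 0.191). The receptor genes IFNAR1, IFNAR2 and IFNGR1 stood at 0.075, 0.030 and 0.010 (adjusted p 0.464, 0.9 and 0.96).

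Within the list, 11 of the 12 called genes had one sign in all 3 pairs, which being called already favours. Of the 12, 10 were highest with HEK-Jag1Ndr beside both myoblast lines and 10 lowest with HEK-Jag1WT beside both. Mouse genes of the same list, read from the same wells, had 0 of 23 higher and 23 lower beside C2C12-Notch1. Mouse Ifit1, the namesake of IFIT1, differed by -7.66, that of IFIT3 by -8.46, that of ISG15 by -5.38 and that of DDX58 by -3.42 on the log2 scale. The mouse reads on these genes thus went the opposite way to the human reads. OASL and HERC5 had no mouse gene of the same name, and mouse counterparts under other symbols were not looked up. Without genes that had more mouse than human reads, 10 of 15 remaining members were higher. DESeq2 called 8 of 25 members and limma 7, and leaving out single wells gave 9 (either HEK-Jag1Ndr well) to 12 calls.

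**Figure D3:**
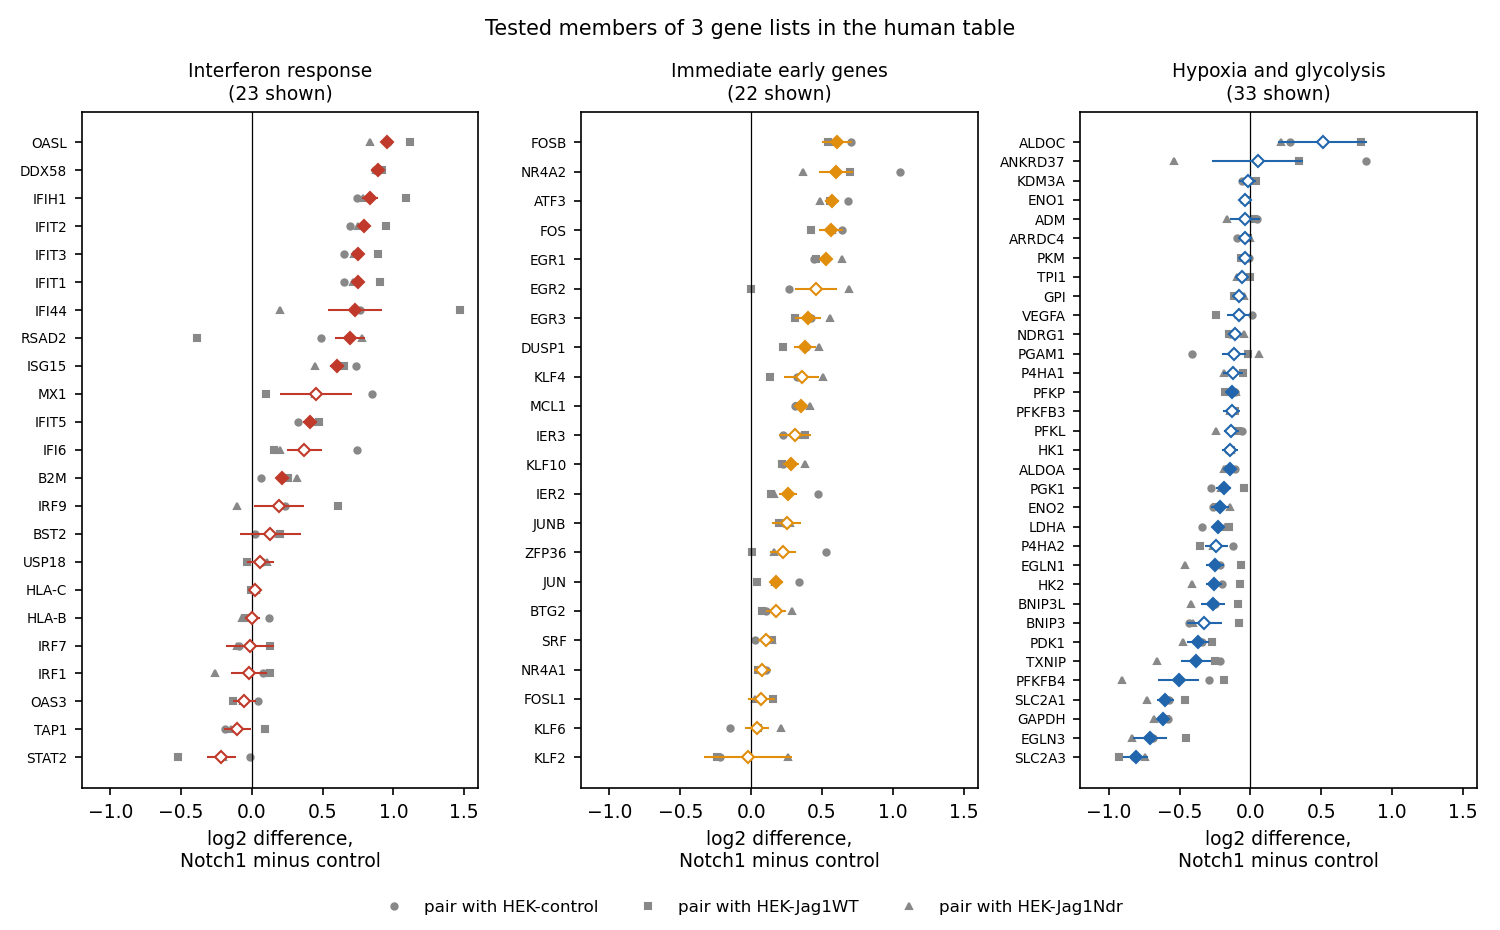
Of the tested members of 3 lists 78 are shown, with the fitted log2 difference (diamonds, filled where called, bars ± 1 SE) and the 3 differences within a HEK line (grey points) on the x axis. Interferon response genes split into a group from 0.21 to 0.95 and a group around 0, immediate early genes lie mostly above 0, and hypoxia and glycolysis genes mostly below 0.

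Immediate early genes were higher as a second group, 11 of 22 tested (50%, against 3.1% of all tested genes) with 0 lower (list median 0.30). Of the 22, 20 had one sign in all 3 pairs, against 38.6% of all tested genes. Without adjustment 17 were higher and 0 lower at p under 0.05. EGR1, a zinc finger transcription factor induced by growth factor signalling, had 73.6, 72.4 and 134 RPKM beside C2C12-control and 99.1, 97.5 and 203 RPKM beside C2C12-Notch1 (log2 difference 0.53, SE 0.0452, edgeR adjusted p 3.08e-16). ATF3, a stress-induced factor of the ATF/CREB family, had 83.1, 134 and 109 and 131, 193 and 151 RPKM (log2 difference 0.57, SE 0.0492, edgeR adjusted p 4.62e-16). MCL1, a short-lived inhibitor of apoptosis, had 132, 178 and 200.4 and 162, 219 and 266 RPKM (log2 difference 0.36, SE 0.0389, edgeR adjusted p 2.07e-11). HEK-Jag1Ndr wells were highest for EGR1 and MCL1 and HEK-Jag1WT wells for ATF3. The 2 lower HEK lines of EGR1 were alike within each myoblast line. The groups overlapped for MCL1 and EGR1. For ATF3 they met, since the highest C2C12-control well had 133.6 RPKM and the lowest C2C12-Notch1 well 131.4 RPKM, although they did not overlap in TMM-scaled reads.

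The AP-1 subunit genes FOS, FOSB and JUN were also called, the last weakly, all named after their values were seen. FOS had 14.4, 10.0 and 24.8 and 22.4, 13.3 and 35.7 RPKM (log2 difference 0.57, SE 0.0868, edgeR adjusted p 1.51e-06), and FOSB had 3.65, 6.67 and 6.78 and 5.93, 9.58 and 9.89 RPKM (log2 difference 0.60, SE 0.104, edgeR adjusted p 2.5e-05). NR4A2, an orphan nuclear receptor, differed by 0.60 (adjusted p 0.000266). Smaller differences were those of JUN (0.18), IER2 (0.26), KLF10 (0.28), DUSP1 (0.38), a phosphatase that ends MAP kinase signalling, and EGR3 (0.40), again named after their values were seen. JUN and IER2 lost their calls without either HEK-control well (adjusted p 0.126 and 0.130, range 0.00304 to 1, and 0.112 and 0.113, range 0.00101 to 1). KLF10, DUSP1 and EGR3 lost theirs without either HEK-Jag1Ndr well (0.0698 and 0.0710, 0.139 and 0.142, and 0.109 and 0.105), so that 8 members were then called. The lowest adjusted p of these 3 genes over the alternatives was 6.2e-06, 0.000128 and 0.00132, and the highest 1. EGR2 and KLF4 were not called (0.46, adjusted p 0.051 and 0.36, adjusted p 0.0661), nor was KLF2 (-0.023, adjusted p 0.982). Among mouse genes 6 of 22 members were higher and 10 lower, and the namesakes of EGR1 and ATF3 stood at -0.24 and -0.34. DESeq2 called 4 members (ATF3, EGR1, FOS and MCL1) and limma 3.

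Glucose transport and glycolysis went the other way. Of 33 tested hypoxia and glycolysis genes 15 were lower beside C2C12-Notch1 (45.5%, against 1.88% of all tested genes) and 0 higher, with a list median of -0.14. One sign was shared by all pairs in 27 of 33, against 38.6% of all tested genes. Without adjustment 22 were lower and 0 higher at p under 0.05. SLC2A1, the glucose transporter GLUT1, had 45.2, 31.4 and 43.4 RPKM beside C2C12-control and 29.96, 22.4 and 25.2 RPKM beside C2C12-Notch1 (log2 difference -0.60, SE 0.0600, edgeR adjusted p 4.64e-13). SLC2A3, the transporter GLUT3, had 16.3, 9.82 and 29.0 and 9.07, 4.98 and 16.7 RPKM (log2 difference -0.81, SE 0.0872, edgeR adjusted p 1.21e-11). For SLC2A1 every C2C12-Notch1 well was below every C2C12-control well, while SLC2A3 differed more between HEK lines than between neighbours. EGLN3, an oxygen-sensing prolyl hydroxylase, had 12.5, 4.96 and 9.91 and 7.65, 3.51 and 5.31 RPKM (log2 difference -0.71, SE 0.119, edgeR adjusted p 1.33e-05). LDHA, lactate dehydrogenase and named after its values were seen, had 300.2, 237 and 288 and 231, 208 and 244 RPKM (log2 difference -0.23, SE 0.0429, edgeR adjusted p 0.000169).

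GAPDH, the glycolytic enzyme often used as a reference gene, had 1659.8, 1608 and 1998 RPKM beside C2C12-control and 1068, 999 and 1151 RPKM beside C2C12-Notch1, with no overlap (log2 difference -0.62, SE 0.0365, edgeR adjusted p 2.42e-25). GAPDH differed far more than its neighbours in the pathway ALDOA (-0.15), PGK1 (-0.19) and PFKP (-0.13), and ENO1, TPI1 and PKM were not called (-0.037, -0.056 and -0.040). The mouse table held 52 reads on Gapdh over the 6 wells, against 34729 on Ldha, the namesake of LDHA, and the mouse share of reads was lower beside C2C12-Notch1. Whether mouse reads lie in the human GAPDH count was not tested. SLC2A1 had 8958 mouse and 4441 human reads, with a mouse difference of -0.81, and EGLN3 had more mouse than human reads as well (2956 and 758). SLC2A3 had 134 mouse reads against 1673 human reads.

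The other called members, named after their values were seen except ENO2, were PDK1 (-0.37), HK2 (-0.26), EGLN1 (-0.25), TXNIP (-0.39), PFKFB4 (-0.50), ALDOA, PGK1, ENO2 (-0.21), BNIP3L (-0.27) and PFKP. All 10 lost their calls without either HEK-Jag1Ndr well, with adjusted p values from 0.0968 (ENO2) to 0.692 (PFKFB4), so that 5 members were then called. ALDOA, BNIP3L, ENO2 and PFKP also lost theirs without either HEK-Jag1WT well (0.215 and 0.256, 0.0595 and 0.0592, 0.260 and 0.271, 0.447 and 0.491), and PGK1 without either HEK-control well (0.0888 and 0.0862). The highest adjusted p of these 10 genes under any alternative was 1. DESeq2 called 4 members (GAPDH, LDHA, SLC2A1 and SLC2A3) and limma 3. Mouse genes of the list were lower in 26 of 30 cases, and without genes with more mouse than human reads 7 of 16 human members were lower. The part of mouse reads in the list was not tested.

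**Figure D4:**
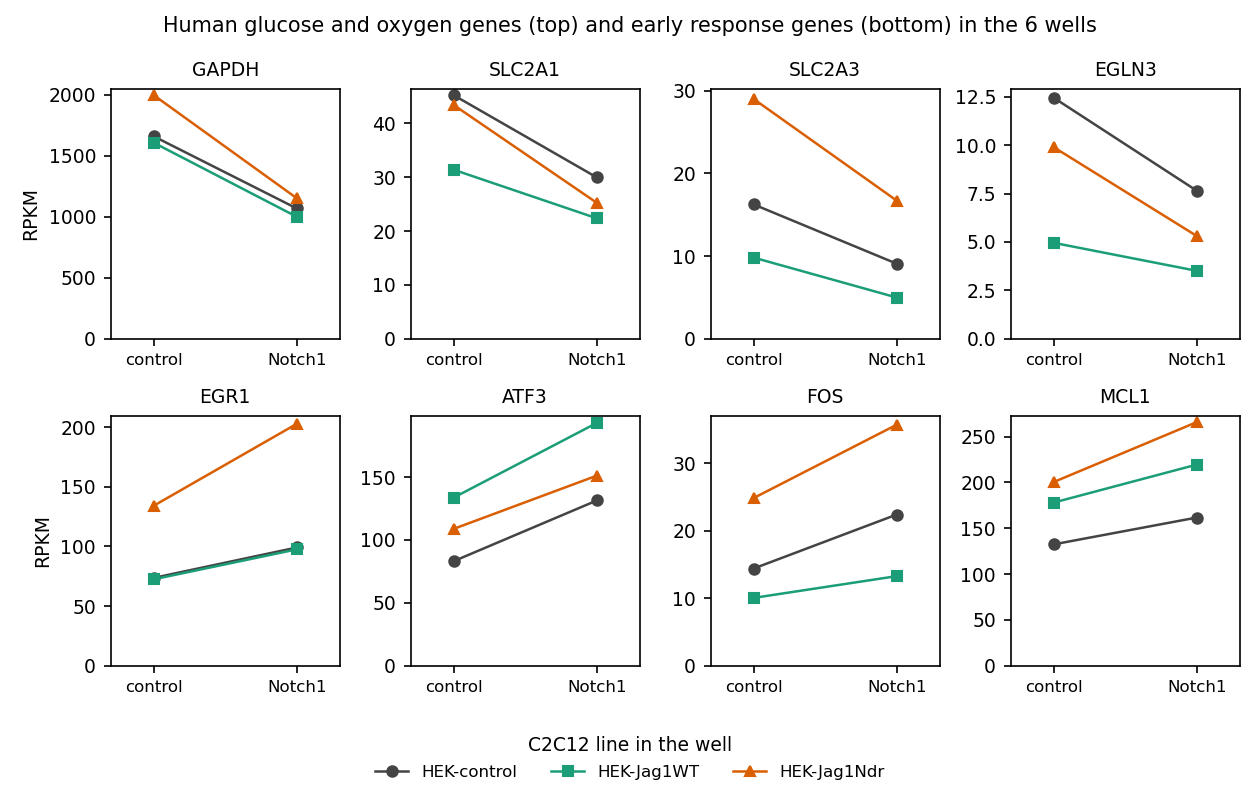
RPKM of 4 human genes of glucose and oxygen response (top) and 4 early response genes (bottom) in the 6 wells, by myoblast line on the x axis, with lines joining the 2 wells of a HEK line and y axes from 0. The 12 lines of the top row go down from control to Notch1 and the 12 of the bottom row go up.

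Of 11 tested Notch receptor and ligand genes 1 was called higher (9.09%) and 2 lower (18.2%) in the HEK cells. Over all tested genes these shares were 3.1% and 1.88%. Human NOTCH1, the receptor gene, had 7.87, 7.08 and 7.63 RPKM beside C2C12-control and 9.78, 8.33 and 8.11 RPKM beside C2C12-Notch1 (log2 difference 0.24, SE 0.0688, edgeR adjusted p 0.0243). Its groups did not overlap, but the call was lost without any 1 of the 6 wells, and so without any pair (adjusted p 0.0535 to 0.220, range over all alternatives 0.0170 to 1). Mouse Notch1, transgene and endogenous gene together, had 2202 reads in the C2C12-control and 18170 in the C2C12-Notch1 wells against 3001 human reads over all wells, and differed by 3.62. The part of mouse reads in the human value was not tested. JAG1, the ligand gene of the human genome, had 8.33, 6.07 and 8.60 and 9.23, 5.16 and 10.2 RPKM (0.13, adjusted p 0.41), with a negative pair difference in HEK-Jag1WT wells. The mouse table held 216060 reads on Jag1 against 1899 human JAG1 reads. Mouse Jag1 stood at 4.995, 1668 and 1448 RPKM beside C2C12-control, then at 9.801, 3768 and 2991 beside C2C12-Notch1. These RPKM are scaled to mouse reads, which were fewer per human read beside C2C12-Notch1. With HEK-Jag1WT there were 42347 Jag1 reads beside C2C12-control and 46762 beside C2C12-Notch1, at 5150941 and 5374291 human reads. With HEK-Jag1Ndr there were 63416 and 63145, at 7142799 and 6683428 human reads. The RPKM step is thus no measure of Jag1 per HEK cell. Mouse Jag1 was high only with the Jag1 lines, and the human JAG1 values need not include their transgene. Whether they do was not tested. NOTCH3, both a receptor and a Notch target, was lower, with 7.47, 11.4 and 9.55 and 5.94, 9.34 and 6.35 RPKM (log2 difference -0.37, SE 0.0734, edgeR adjusted p 0.000309), and so was the ligand gene JAG2, with 10.0, 17.3 and 11.3 and 9.45, 12.4 and 7.84 RPKM (log2 difference -0.34, SE 0.0753, edgeR adjusted p 0.00191). NOTCH3 lost its call without either HEK-Jag1Ndr well (0.121 and 0.122, range 2.21e-05 to 1), and JAG2 without either well of either Jag1 line (0.129 to 0.142, range 1.38e-06 to 1). NOTCH3 had 10130 mouse against 2506 human reads and JAG2 2806 against 2458. The part of mouse reads in these 2 lower calls was not tested. NOTCH2 stood at 0.11, adjusted p 0.147.

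Of 13 tested Notch targets 0 were higher and 1, NOTCH3, was lower (7.69%, list median 0.085), against 3.1% higher and 1.88% lower over all tested genes. At an unadjusted p under 0.05 edgeR had 3 higher and 2 lower, and DESeq2 and limma called 0. HEY1, a repressor that responds directly to Notch, came closest to a higher call, with 31.4, 58.1 and 43.7 RPKM beside C2C12-control and 31.4, 65.6 and 51.5 RPKM beside C2C12-Notch1 (0.19, adjusted p 0.0609). HES1 and NRARP, further direct targets, stood at -0.074, adjusted p 0.711 and 0.085, adjusted p 0.609. MYC, HEY2, HEYL, GATA3, CCND1 and HES4 stood at 0.14, 0.18, -0.13, 0.16, 0.036 and -0.15, with adjusted p values from 0.162 to 0.765. Without either HEK-control well HEY1 and MYC were called higher (0.24 and 0.26, adjusted p 0.00216 to 0.00439) and HES4 lower (-0.33, adjusted p 0.000157 and 0.000158), with adjusted p values up to 1 over all alternatives. LFNG, HES7 and DTX1 had few reads and wide errors (0.80, SE 0.331, -1.06, SE 0.409, and 0.25, SE 0.349). Of 31 genes of the Notch machinery 2 were called higher (6.45%) and 1 lower (3.23%). The coactivator gene EP300 was higher, with 16.7, 19.2 and 18.1 and 20.6, 22.9 and 21.3 RPKM and no overlap (log2 difference 0.30, SE 0.0523, edgeR adjusted p 4e-05). MAML3, another coactivator of Notch, stood at 0.49, and lost its call without either well of either Jag1 line (adjusted p 0.0701 to 0.374, range over all alternatives 0.0166 to 1).

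Lists with fewer calls follow, to be set beside 3.1% of all tested genes called higher and 1.88% called lower. ID1, an inhibitor of differentiation factors and a target of bone morphogenetic protein, was the one gene called at over 2-fold higher, with 3.45, 3.72 and 12.9 RPKM beside C2C12-control and 9.24, 5.06 and 25.6 RPKM beside C2C12-Notch1 (log2 difference 1.03, SE 0.165, edgeR adjusted p 4.07e-06). Its level rests on 434 reads over the 6 wells, and the mouse namesake, with 1330 reads, differed by 0.94. In the TGF-beta and BMP list 5 of 21 tested genes were higher (23.8%) and 0 lower, ID3 among them at 0.55 (adjusted p 0.000415), while the list median was 0.063. YAP targets, which respond to cell shape and contact, had 4 of 18 higher (22.2%) and 0 lower (median 0.061). CYR61, a matricellular protein of that list, had 26.5, 51.9 and 91.3 and 40.4, 62.3 and 142 RPKM (log2 difference 0.55, SE 0.0592, edgeR adjusted p 2.07e-11), and GADD45B had 26.7, 27.9 and 20.9 and 44.5, 35.0 and 32.4 RPKM (log2 difference 0.60, SE 0.0887, edgeR adjusted p 5.27e-07). ANKRD1 differed by 0.87 (adjusted p 5.93e-06) with a pair difference of -0.10 in the HEK-control wells, and had 15763 mouse reads against 562 human reads, whose part was not tested. The mouse namesakes of ID3, CYR61 and GADD45B were higher too among mouse reads, by 1.11, 1.23 and 0.69. They had 2479, 2868 and 777 mouse reads against 985, 6202 and 1716 human reads, and their part was not tested either. Mouse differences are scaled to mouse reads. The log2 ratio of mouse to human reads itself differed by -0.95, -1.09 and -0.95 (C2C12-Notch1 minus C2C12-control). Per human read, the mouse differences are therefore not those printed.

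Targets of p53, the DNA damage factor, had 6 of 21 higher (28.6%) and 0 lower (median 0.032). PMAIP1, which encodes the apoptosis inducer NOXA, had 1196, 1112 and 1794 RPKM beside C2C12-control and 1598, 1759 and 2569.8 RPKM beside C2C12-Notch1 (log2 difference 0.56, SE 0.0371, edgeR adjusted p 3.91e-22). MDM2, the ligase that restrains p53, had 67.0, 64.3 and 87.7 and 81.1, 79.1 and 112 RPKM (log2 difference 0.34, SE 0.0401, edgeR adjusted p 2.29e-10), and AEN, an exonuclease, differed by 0.23 (adjusted p 3.29e-05). The cell cycle inhibitor gene CDKN1A stood at 0.22 (adjusted p 0.000133) and GADD45A at 0.39 (0.000324), both named after their values were seen. The matrix list had 6 of 34 higher (17.6%) and 1 lower (2.94%, median -0.071), so most called members and the list median differed in sign. THBS1, thrombospondin, had 15.4, 17.6 and 20.6 and 23.0, 23.5 and 36.8 RPKM with no overlap (log2 difference 0.67, SE 0.0614, edgeR adjusted p 5.94e-14), FN1, fibronectin, 31.1, 9.93 and 66.0 and 40.9, 14.3 and 84.5 RPKM (log2 difference 0.44, SE 0.0470, edgeR adjusted p 1.21e-11), and TNC differed by 0.30 (0.000335). FN1 had 117441 mouse reads against 13609 human reads and a mouse difference of 0.036. THBS1 had 16757 against 5253 and a mouse difference of 1.31. Both mouse differences are scaled to mouse reads, and the part of mouse reads was not tested.

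Single genes outside these sets were also among the largest. OLIG2, a transcription factor of the neural lineage with no mouse reads in these wells, had 8.90, 8.26 and 12.9 RPKM beside C2C12-control and 14.4, 12.2 and 21.3 RPKM beside C2C12-Notch1 (log2 difference 0.71, SE 0.0964, edgeR adjusted p 5.71e-08). PTGS2, the inducible cyclooxygenase, had 3.70, 0.846 and 18.0 and 5.96, 1.87 and 31.3 RPKM (log2 difference 0.83, SE 0.0925, edgeR adjusted p 4.18e-11). PCDH9, a cadherin, had 1.90, 0.682 and 1.28 and 3.15, 1.34 and 1.88 RPKM (log2 difference 0.73, SE 0.161, edgeR adjusted p 0.00176). All 3 were higher in every pair and overlapped between groups. The keratin genes KRT17 and KRT75, with 3 and 1 mouse reads in all and named after their values were seen, differed by 0.60 (adjusted p 2.27e-16) and 0.59 (8.81e-10). SRSF6, a splicing factor, differed by 0.30 (3.03e-07), and of 26 splicing genes 7 were higher (26.9%, against 3.1% of all tested genes) and 0 lower. The ligand gene EFNB2 stood at 0.30 (4.26e-06) and the heme oxygenase gene HMOX1 at 0.44 (3.86e-06).

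The largest lower value was that of HLA-L, a pseudogene of the class I histocompatibility family, with 3.35, 2.96 and 3.71 RPKM beside C2C12-control and 0.863, 0.578 and 0.548 RPKM beside C2C12-Notch1 (log2 difference -2.26, SE 0.190, edgeR adjusted p 1.68e-16). HLA-B and HLA-C were not called, as given above, while in the mouse table H2-K1 had 10591 reads in the C2C12-control and 1405 in the C2C12-Notch1 wells, a log2 difference of -2.38. Whether HLA-L reads came from mouse class I transcripts was not tested. HNRNPA3P1, another pseudogene, had 12.6, 12.1 and 14.9 and 6.06, 5.27 and 9.48 RPKM (log2 difference -0.89, SE 0.109, edgeR adjusted p 1.64e-09), and reads of a pseudogene cannot be told apart from those of its near-identical parent. TENC1, a focal adhesion gene, differed by -1.02 (0.00125), with 7767 mouse against 203 human reads, and lost its call without either HEK-Jag1WT well (0.0991 and 0.0892, range 0.000412 to 1). Over all tested genes 32.5% of lower calls had more mouse than human reads, against 14.8% of higher calls and 24.2% of genes not called. ZNF395, a zinc finger gene, was lower too, with 12.8, 22.7 and 11.3 and 7.33, 16.2 and 5.45 RPKM (log2 difference -0.71, SE 0.0811, edgeR adjusted p 1.56e-10). It had no mouse gene of the same name, and a mouse counterpart under another symbol was not looked up. TTBK1, a tubulin kinase gene named after its values were seen, had 119 human and 5 mouse reads in all and a difference of -1.64 (adjusted p 4.34e-05). STC2, stanniocalcin, had 46.1, 20.4 and 30.7 and 37.5, 14.1 and 16.5 RPKM (log2 difference -0.52, SE 0.0771, edgeR adjusted p 0.00025), and the HEK marker gene SALL2 25.04, 24.1 and 25.4 and 19.7, 19.9 and 18.9 RPKM with no overlap (log2 difference -0.32, SE 0.0600, edgeR adjusted p 0.000105).

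The counts of the lists below stand beside 3.1% of all tested genes called higher and 1.88% called lower. Among 54 ribosomal protein genes, 46 oxidative phosphorylation genes, 12 Wnt targets and 11 histone genes edgeR called 0, with list medians of -0.025, -0.015, -0.067 and 0.089. At an unadjusted p under 0.05 they had 0, 0, 1 and 3 higher and 3, 3, 3 and 1 lower members, and DESeq2 and limma called 0. At the shares over all tested genes, lists of 12 or 11 genes can hold 0 calls. Cell cycle genes had 4 of 26 higher in the S phase list (15.4%) and 2 of 32 in the mitosis list (6.25%), with 0 lower in both. At an unadjusted p under 0.05 edgeR had 12 higher and 0 lower in the S phase list, and 2 higher and 1 lower in the mitosis list. Unfolded protein response genes had 2 of 20 higher (10%) and heat shock genes 2 of 18 (11.1%). Both lists had 7 higher at an unadjusted p under 0.05 in edgeR, with 0 and 1 lower. Cholesterol synthesis genes had 2 higher (8.33%) and 1 lower of 24, and ATF4 and amino acid response genes 2 higher (7.41%) and 1 lower of 27. Fatty acid synthesis genes and actin and SRF targets had 1 of each of 11 and 17, MAPK and FGF feedback genes 2 higher and 1 lower of 15. Adhesion and junction genes had 4 of 34 higher (11.8%), Eph receptors and ephrins 2 of 17 (11.8%), and metallothionein and oxidative stress genes 1 of 13 (7.69%), with 0 lower in each. HEK markers had 0 higher and 2 lower (15.4%) of 13.

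**Figure D5:**
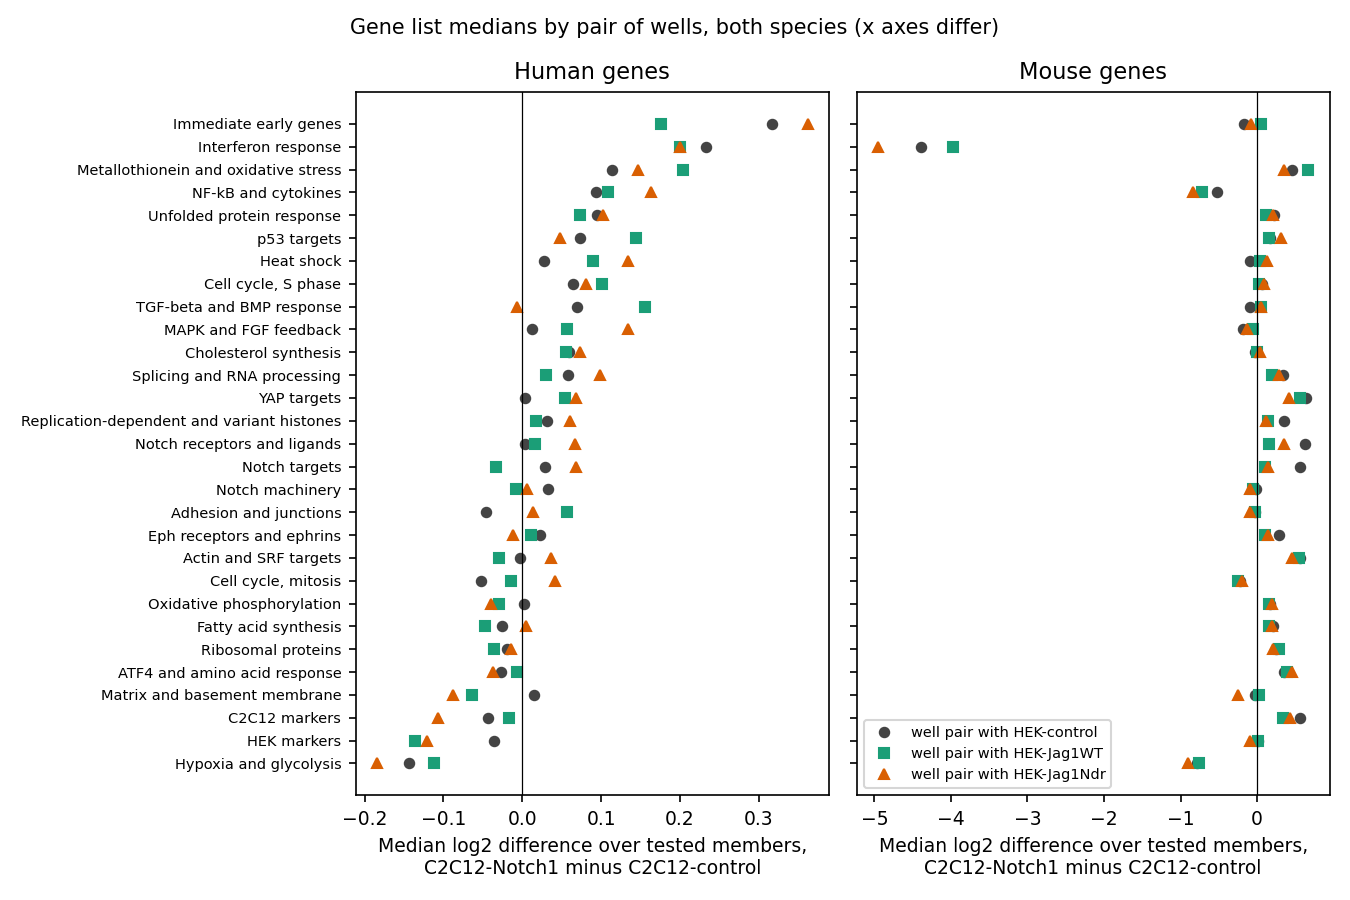
Median log2 difference between C2C12-Notch1 and C2C12-control wells for 29 gene lists, in human genes (left) and mouse genes (right), with 1 point for each HEK line and separate x axis scales. In human genes the immediate early and interferon lists lie above 0 and the hypoxia and glycolysis list below 0 in all 3 pairs, and in mouse genes the interferon list lies lowest.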

How the data were processed

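RNA was sequenced from 6 co-culture wells, 3 with each C2C12 line. PolyA libraries came from an unstranded kit, per the labels' protocols, so overlapping and antisense genes cannot be told apart. Per the submitters' processing notes, STAR was among the tools, and mm9 and hg19 are the builds listed. How reads were assigned to a species, which counter was used and all versions were not given in the sources used here. Raw read counts for RefSeq genes of each species were deposited with RPKM beside them, per the file headers. RPKM values are printed as levels, and all main tests used the deposited counts. The authors' RPKM and counts of 1 gene can differ in their ratio between paired wells, by over 0.1 on the log2 scale beyond the pair's median for 4.19% to 5.03% of tested genes.

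From 24303 human entries, 448 exact repeats were removed. Genes kept by filterByExpr were scaled by TMM and fitted with edgeR 4.0.16 (robust quasi-likelihood, R 4.3.3), with HEK line as a block and C2C12 line as the tested term, leaving 2 residual degrees of freedom. The pairing comes from the HEK line: the wells of a pair hold the same HEK line, and HEK lines set 54.1% and 46.5% of genes apart. Called means a Benjamini-Hochberg adjusted p under 0.05 over all 13270 genes. The fit was tested on simulated counts. Differences within a pair use a prior count of 2, and depth limits their precision by counting error only. DESeq2 1.42.0, limma 3.58.1 and further alternatives are given at the end. Mouse genes were fitted alike, with differences scaled to mouse reads, and matched by symbol.

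Named genes were NOTCH1 and JAG1, up to 15 higher and 15 lower called genes with an average log2 CPM from 2 upwards and one sign in the 3 pairs, up to 3 members of each of 31 lists (744 symbols) by smallest p, and all tested Notch targets. Other genes are said to be named after their values were seen. The members and lists were chosen with earlier results of these data known. No sequences or coordinates were used here. A few genes counted in the lists are not reported here by name.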

Additional observations from a re-analysis of the deposited data

Results flagged for a closer look

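Human and mouse genes of the same list went opposite ways in all 3 pairs of wells for 6 lists, and the difference between species was not tested. Each species was scaled to its own reads, and the tested members differ between species. For interferon response genes the human median was 0.30 on the log2 scale (C2C12-Notch1 minus C2C12-control) and the mouse pair medians were -4.39, -3.98 and -4.95. NF-kB and cytokine genes had a human median of 0.10 (9 genes) and mouse pair medians of -0.53, -0.72 and -0.84 (14 genes). For MAPK and FGF feedback genes the human median was 0.056 and the mouse values lay from -0.19 to -0.056. Ribosomal protein genes had a human median of -0.025 and mouse values from 0.21 to 0.29, and ATF4 and amino acid response genes -0.010 and 0.35 to 0.45. The human median of the ATF4 list ran from -0.042 to 0.026 over the alternative runs, so its sign was not stable. For myoblast markers the human median was -0.091 over 6 genes and the mouse values, over 18 genes, lay from 0.34 to 0.55.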

How the results depend on the processing

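The HEK line as a replicate block decided the outcome: with no replicate block 0 genes were called, 0 higher and 0 lower, and 0 in the interferon, immediate early and hypoxia lists. DESeq2 called 69 (61 higher, 8 lower, a higher share of 88.4%), with 4 immediate early and 4 hypoxia genes, and 4242 and 2988 genes between HEK lines against 7184 and 6164. The limma fit on RPKM called 27 (20 higher, 7 lower, 74.1% higher), with 7 interferon, 3 immediate early and 3 hypoxia genes. Scaling by library size only gave 254 higher calls and a higher share of 42.1%, and thinning to equal depth 148 lower calls. Without genes with more mouse than human reads 7 hypoxia genes were lower. RLE scaling, no filter and a mean of at least 50 reads gave 681, 724 and 599 calls.

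Leaving out 1 well gave 180 to 1441 calls, 135 to 845 higher and 42 to 600 lower, a higher share of 58.4% to 76.7%, 9 to 12 interferon, 8 to 12 immediate early and 5 to 16 hypoxia genes, 5120 to 7290 and 4333 to 6017 calls between HEK lines, and a difference in mouse share of -18.2 to -14.7 percentage points. No called gene among the 83 changed sign under any alternative. Genes not called that did were LIF (thinned, -0.0066), COL1A1 (0.0084 and 0.0097, range without 1 well -0.29 to 0.0097) and HES4 (0.093 and 0.094, range -0.33 to 0.094) without a HEK-Jag1Ndr well, and COL3A1 (0.046 and 0.045, range -0.67 to 0.046) and DTX1 (-0.069 and -0.070, range -0.070 to 0.43) without a HEK-control well. The cause was not tested. DESeq2 called 29 of the 83 and limma 17. With 1 well per combination, no effect within 1 HEK line could be tested.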

Other observations

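Genes called higher beside C2C12-Notch1 were longer and more abundant than the rest. Their median gene model length, as implied by counts and RPKM, was 4.33 kb and their median average log2 CPM 6.88, against 3.44 kb and 5.45 for genes called lower and 2.83 kb and 5.197 for genes not called. The part of length and depth in the calls was not tested.

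Most called genes lay outside the lists. Of 650 tested genes on at least 1 list 80 were called higher and 24 lower, and 25 of the 31 lists had a call. Of all 13270 tested genes 411 were called higher (3.1%) and 249 lower (1.88%). Listed genes were thus called more often than tested genes as a whole, in lists chosen with earlier results of these data known. Over 2-fold lower were HLA-L, TTBK1, PPFIA4, TENC1, PHF7, MIR210HG, TPM2 and B3GALT5, with 39 (MIR210HG) to 321 (HLA-L) human reads in all. TPM2, an actin-binding tropomyosin, differed by -1.04 (edgeR adjusted p 0.0187). It had 6594 mouse reads against 114 human reads and a mouse difference of 1.11, scaled to mouse reads. Apart from HLA-L and TENC1 these genes were named after their values were seen or, as TPM2, by their list. PPFIA4 lost its call without either HEK-Jag1Ndr well (adjusted p 0.225 and 0.227). B3GALT5, PHF7 and TPM2 lost theirs without either HEK-Jag1Ndr well (0.153 to 0.637) and without either HEK-Jag1WT well (0.144 to 0.228). MIR210HG, the host transcript of a hypoxia-induced microRNA, lost its call when the HEK-control well of the C2C12-control group was left out (0.0977). Their highest adjusted p under any alternative was 1.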
